A study of Mus musculus with 6 samples.

Results

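Interferon-stimulated genes are the genes that a cell switches on when an interferon binds its receptor, and 43 of them were followed here in 6 libraries of mouse gut epithelium profiled by RNA-seq. They were taken by symbol from a list of sensors, transcription factors, antiviral effectors, GTPases and regulators of this programme. All 43 had a row among the 23845 genes of the deposited count table, and all 43 passed the filter on low counts that 13935 genes passed. The libraries formed 3 groups of 2, in a study of how the dose of Neurog3, the transcription factor that starts enteroendocrine differentiation, affects progenitors in the gut. EGFP cells came from mice of genotype Neurog3+/-EGFP on the C57BL6 strain, with 1 Neurog3 allele and an EGFP reporter. EYFP cells came from mice of genotype Neurog3+/+EYFP on a mix of C57BL6 and CD1, with 2 alleles and an EYFP reporter. The wild-type libraries came from C57BL6 mice with no reporter. The study sorted Neurog3-expressing cells by flow cytometry, whereas no label calls the wild-type cells sorted, and their titles carry a short form of duodenum. No infection and no interferon treatment is given for any group. Allele number, reporter and strain change together between EGFP and EYFP cells and cannot be told apart. Age, sex, the gates and whether animals were pooled are unknown from the labels, as is whether the libraries of a group came from separate animals, so p-values measure the spread between these libraries.

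Interferons are secreted when a cell detects foreign nucleic acid or when lymphocytes are activated. Type I and type III interferons act through receptors coupled to the kinases JAK1 and TYK2, which lead to a complex with STAT2 and IRF9 that binds the interferon-stimulated response element (ISRE) in promoters. Type II interferon, interferon gamma, acts through its own receptor and through another promoter element, the gamma-activated site (GAS). In the intestinal epithelium, type III interferon is a main antiviral signal, interferon gamma comes largely from lymphocytes within the epithelial layer, and a low level of the programme is present without infection in response to the gut microbiota.

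The promoters of the members were searched for the letters that these complexes bind, and 8 stretches are printed to show how matches are laid out, or are missing, in genes that differ in their response across the 3 groups. A window of 300 bases, from 250 before to 50 after the annotated start, was available for 32 members in the RefSeq promoter table of build GRCm38.p6. The ISRE core was searched as GAAA, any 2 bases and GAAA, and the GAS as TTC, any 3 bases and GAA, on both strands, and a match of each may overlap a match of the other. The ISRE core was found in 18 of the 32 windows (56.2%), against 3.99% of 27025 genes with a window (3.44% of 32851 windows). The GAS was found in 10 of the 32 (31.2%), against 9.55% of the genes (8.3% of the windows), and 6 members held both motifs. A match is a description of the letters and not evidence of binding. Each stretch below holds the 140 bases before the start, 5′ to 3′ on the gene's strand, with motif matches in capitals. On the reverse strand the ISRE core reads TTTC, 2 bases and TTTC, as in Ifit1 and Gbp7.
Isg15: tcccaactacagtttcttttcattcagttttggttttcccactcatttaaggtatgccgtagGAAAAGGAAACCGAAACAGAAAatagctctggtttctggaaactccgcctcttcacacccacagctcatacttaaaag
Ifit1: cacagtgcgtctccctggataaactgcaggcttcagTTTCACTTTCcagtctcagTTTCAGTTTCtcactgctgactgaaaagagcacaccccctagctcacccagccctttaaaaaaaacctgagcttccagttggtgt
Bst2: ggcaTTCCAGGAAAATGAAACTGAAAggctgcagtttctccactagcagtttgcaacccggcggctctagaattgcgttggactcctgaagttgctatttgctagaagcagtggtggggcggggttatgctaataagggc
Gbp7: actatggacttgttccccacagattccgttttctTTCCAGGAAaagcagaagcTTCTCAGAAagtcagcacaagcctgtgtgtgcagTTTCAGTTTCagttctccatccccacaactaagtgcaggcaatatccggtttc
Irgm1: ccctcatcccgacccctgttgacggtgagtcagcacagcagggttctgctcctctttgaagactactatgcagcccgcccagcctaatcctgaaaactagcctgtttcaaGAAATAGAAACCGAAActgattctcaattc
Igtp: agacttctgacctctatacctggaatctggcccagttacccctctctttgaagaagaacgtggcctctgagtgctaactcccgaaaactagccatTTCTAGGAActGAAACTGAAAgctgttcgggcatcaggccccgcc
Irgm2: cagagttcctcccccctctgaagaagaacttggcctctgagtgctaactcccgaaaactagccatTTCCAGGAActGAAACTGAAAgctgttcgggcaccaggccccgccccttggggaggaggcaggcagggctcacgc
Lgals3bp: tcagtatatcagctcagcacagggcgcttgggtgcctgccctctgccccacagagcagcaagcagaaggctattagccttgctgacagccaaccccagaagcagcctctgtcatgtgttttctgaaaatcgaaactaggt

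Isg15 (chr4:156200819-156200958, minus strand) held 3 ISRE cores that overlap in 1 run, from 78 to 57 bases before the start. Ifit1 (chr19:34640749-34640888, plus strand) held 2 separate cores, and Irgm1 (chr11:48871421-48871560, minus strand) held 2 that overlap, from 30 to 15 bases before the start. In Bst2 (chr8:71537473-71537612, minus strand) the GAS runs into the first of 2 overlapping ISRE cores. Gbp7 (chr3:142530196-142530335, plus strand) held 2 GAS matches farther from the start than its ISRE core. Igtp (chr11:58199416-58199555) and Irgm2 (chr11:58214837-58214976), both on the plus strand, share the same layout of a GAS, 2 bases and an ISRE core. Lgals3bp (chr11:118401960-118402099, minus strand) held neither motif and is shown because its level went the other way. The plot of motif positions gives all 32 windows.

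**Figure D1:**
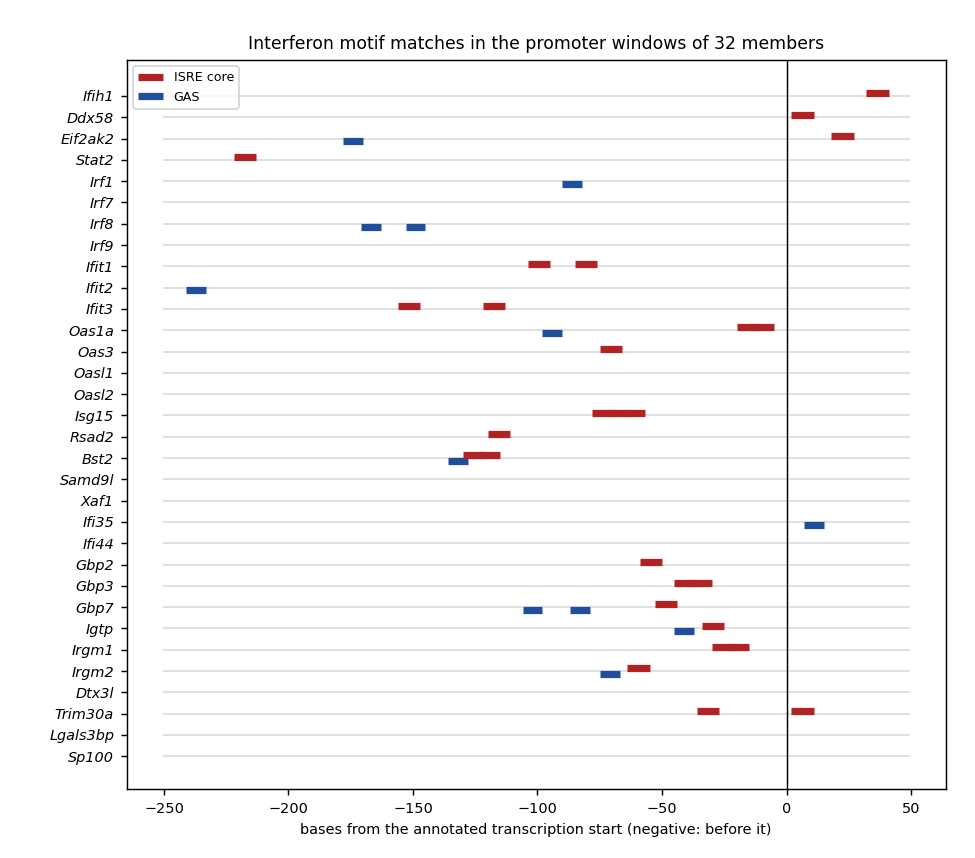
Positions of ISRE core matches (red) and GAS matches (blue) in the promoter windows of the 32 members with a window, in bases from the annotated start; each row is 1 gene. Most ISRE matches lie within 130 bases before the start, and 14 of the 32 windows hold no ISRE core.

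Total estimated counts per library ranged from 7938358 to 20589683. Levels are given in CPM, the usual unit of counts scaled to a fixed library total, here with TMM factors. All 6 epithelial markers checked, such as Epcam and Vil1, were detected in every library. The groups differed in cell type markers: in EYFP cells against EGFP cells, 6 of 6 enteroendocrine markers were higher, and 6 of 6 goblet, 5 of 5 Paneth, 4 of 4 tuft and 6 of 6 dividing-cell markers were lower past the test. Neurog3 itself was at 120 and 179 CPM in EGFP cells, 563 and 348 CPM in EYFP cells, and 5.996 and 6.39 CPM in wild type. The 10 lymphocyte markers summed to 639 and 690 CPM in the wild-type libraries, 15.3 and 41.9 CPM in EGFP cells and 18.3 and 24.97 CPM in EYFP cells. All 10 were lower in both kinds of sorted cells than in wild type. Goblet markers summed to 56118 and 92968 CPM in EGFP cells, 681 and 1751 CPM in EYFP cells, and 5093 and 5891 CPM in wild type. All 6 goblet markers were higher in EGFP cells than in wild type past the test. The 7 enterocyte markers, summed, were at 22534 and 36335 CPM in the wild-type libraries. Their sums were 843 and 1161 CPM in EGFP cells and 699 and 1407 CPM in EYFP cells. All 7 were lower past the test in both kinds of sorted cells than in wild type. The 7 myeloid markers summed to 241 CPM in EYFP replicate 1, of which Lyz2 made up 207 CPM, and to between 5.33 and 46.5 CPM in the other 5 libraries. Xist was at 726 CPM or more in both EGFP libraries and wild-type replicate 2 and at 2.38 CPM or less in the other 3, where the Y-linked gene Ddx3y was at 37.3 CPM or more. These differences in cell type, strain and sex run with the group comparisons, and their part in the results below was not tested.

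Between the sorted cells, most interferon-stimulated genes were lower in EYFP cells than in EGFP cells. Of the 43 members, 27 (62.8%) were lower, 1 was higher, and the remaining 15 missed the threshold (edgeR's quasi-likelihood test, Benjamini-Hochberg adjusted p under 0.05). The 27 include Iigp1, which passed the filter on low counts through the EGFP libraries alone, so its direction was favoured in advance. Over all 13935 genes, 19.4% were lower and 16.8% were higher, or 36.2% in either direction. The median log2 fold change was -1.61 over the members and 0.01 over all genes, and 24 members were lower past the test and at least 2-fold, as were 1473 of all genes. In 39 members both EYFP libraries lay below both EGFP libraries, which was so for 36.9% of all genes. In 3 members they lay above (37.3% of all genes), and Ifit2 alone overlapped. Leaving out EGFP replicate 1 brought the calls from 28 to 11, all lower, with a median log2 fold change of -1.39. Those 11 were Zbp1, Ddx58, Irf8, Oasl1, Isg15, Mx1, Bst2, Igtp, Irgm1, Irgm2 and Sp100, and they were called in every alternative fit run. The other 17 calls were each lost when 1 of the EGFP or EYFP libraries was left out. Here and below, a fit without 1 library leaves 1 library in that group, so a call can be lost while the fold change hardly moves. The share of all genes called in such fits is not given here. In bulk RNA, fewer cells of a type and less RNA per cell cannot be told apart.

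**Figure D2:**
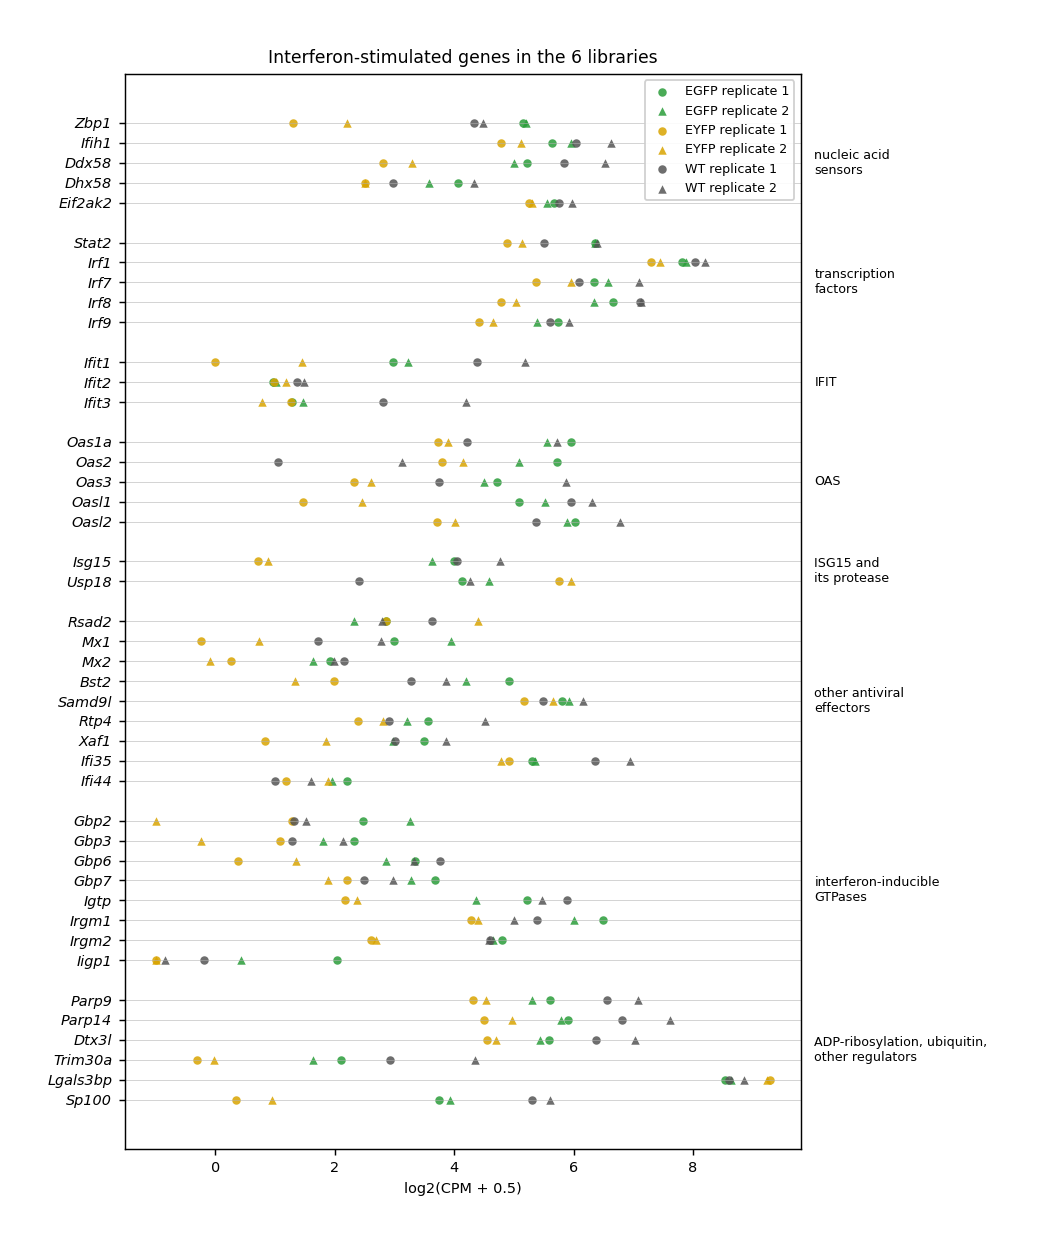
Level of each member in each of the 6 libraries, as log2(CPM + 0.5), grouped by role; colour marks the group and shape the replicate. EYFP libraries (yellow) lie to the left in most rows, and to the right in Usp18 and Lgals3bp.

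Against wild type, EYFP cells were lower in 30 members (69.8%), higher in 2 and not past the test in 11. Over all genes 33.5% were lower and 27.1% higher (60.6% in either direction), a larger share than the 36.2% between the sorted cells. The median log2 fold change was -2.03 over the members and -0.12 over all genes, and 27 members were lower past the test and at least 2-fold, as were 3087 of all genes. Both EYFP libraries lay below both wild-type libraries in 37 members, against 45% of all genes, and above them in 3, against 37% of all genes. Of the 32 calls, 23 held in every alternative fit run other than the fold threshold, and 25 members were called without EYFP replicate 1. With DESeq2 size factors in place of TMM, the median of all genes moved by 0.11 on the log2 scale, all-gene calls went from 3778 higher and 4668 lower to 4173 higher and 4183 lower, and the members' median became -1.91.

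EGFP cells and wild type differed in fewer members. Of the 43, 10 were lower, 2 were higher and the other 31 missed the threshold, so that 23.3% were lower against 21.9% of all genes and 4.65% were higher against 19.6% (41.5% of all genes in either direction). The share of members that were lower is thus close to the background. The median log2 fold change was -0.27 over the members and 0.00 over all genes. The 10 lower members were Ddx58, Irf8, Ifit1, Ifit3, Ifi35, Parp9, Parp14, Dtx3l, Trim30a and Sp100, and the 2 higher were Oas2 and Irgm1. The calls of Ddx58, Irf8, Ifit1, Ifit3, Parp14 and Trim30a were each lost without 1 of the EGFP or wild-type libraries. Without wild-type replicate 2, 6 members were lower and 6 higher, with a median of -0.01. Both EGFP libraries lay below both wild-type libraries in 18 members and above them in 10, against 36.2% and 35% of all genes. The 3 comparisons share libraries, so their counts are not independent.

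**Figure D3:**
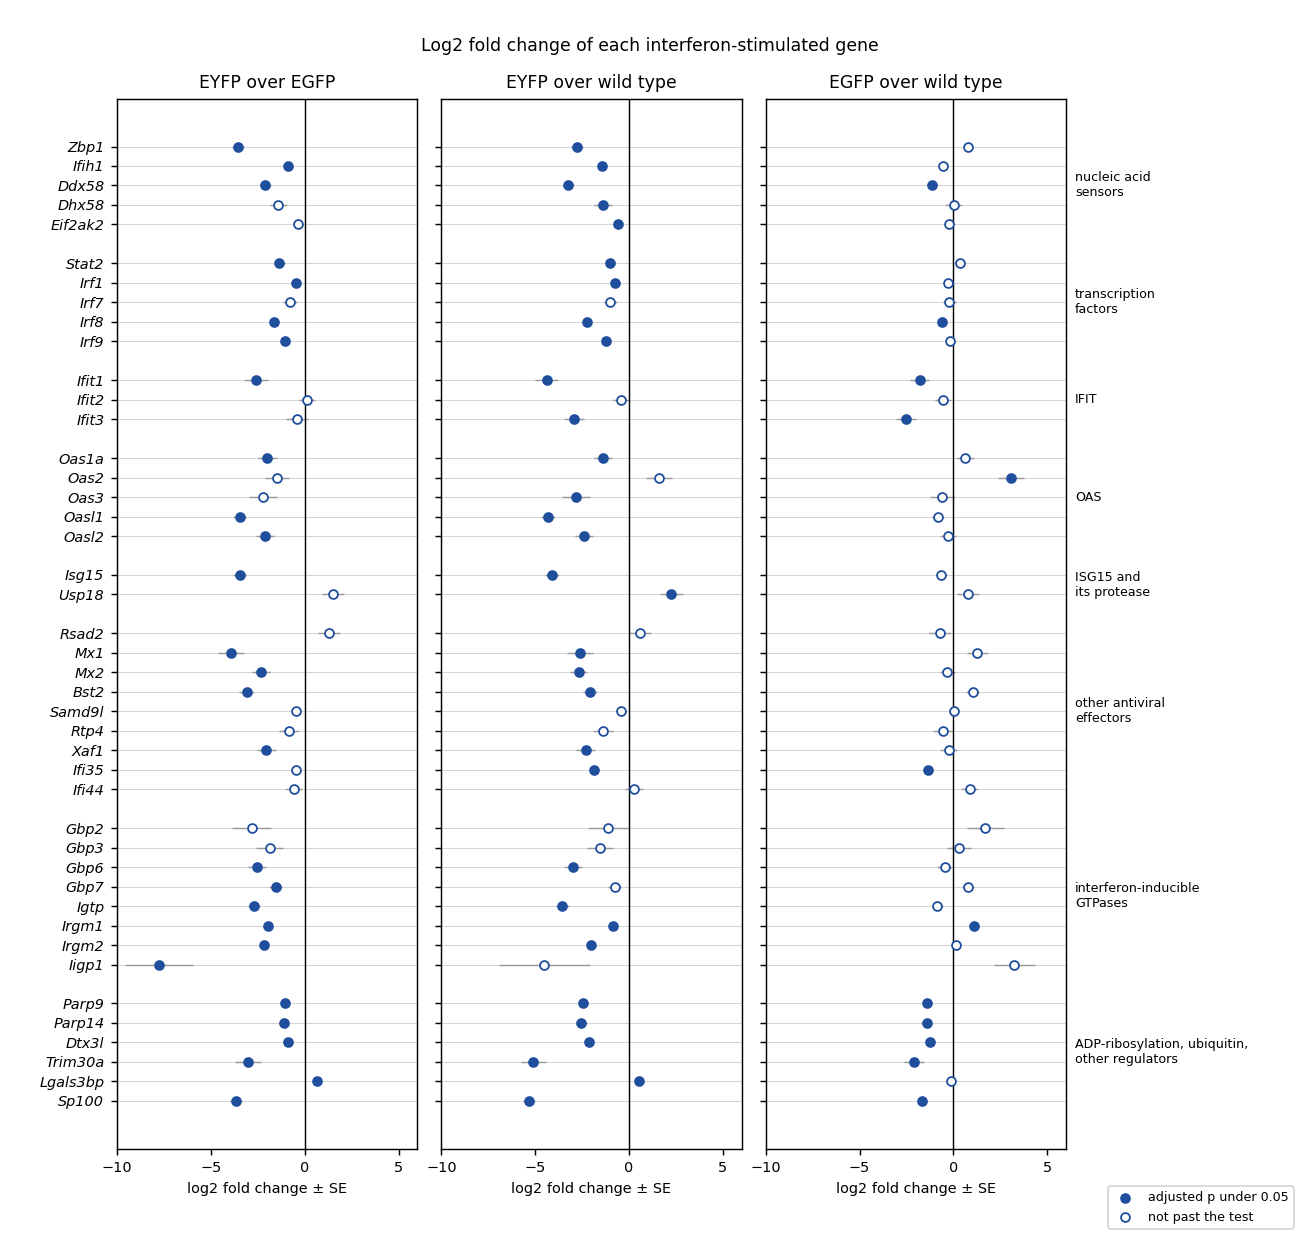
Log2 fold change of each member with its standard error in the 3 comparisons, filled where the adjusted p is under 0.05. Most filled points lie left of 0 for EYFP over EGFP and EYFP over wild type; for EGFP over wild type 12 points are filled, and the value of Iigp1 is a fitted one that rests on EYFP libraries at 0.

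By mean level, 24 members followed the order EYFP, EGFP, wild type from low to high, and 13 followed EYFP, wild type, EGFP. Past the test, 8 members were lower in EYFP than in EGFP cells, and also lower in EGFP cells than in wild type: Ddx58, Irf8, Ifit1, Parp9, Parp14, Dtx3l, Trim30a and Sp100. A further 16 were lower in EYFP cells than in both other groups while EGFP cells and wild type did not differ past the test. Dhx58, Eif2ak2 and Oas3 were lower in EYFP cells against wild type alone, and Gbp7 and Iigp1 against EGFP cells alone. Irf7, Ifit2, Rsad2, Samd9l, Rtp4, Ifi44, Gbp2 and Gbp3 passed no test in any of the 3 comparisons. The shares of all genes with these orders and patterns were not computed. The counts in this paragraph therefore describe the members and do not set them apart from other genes.

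**Figure D4:**
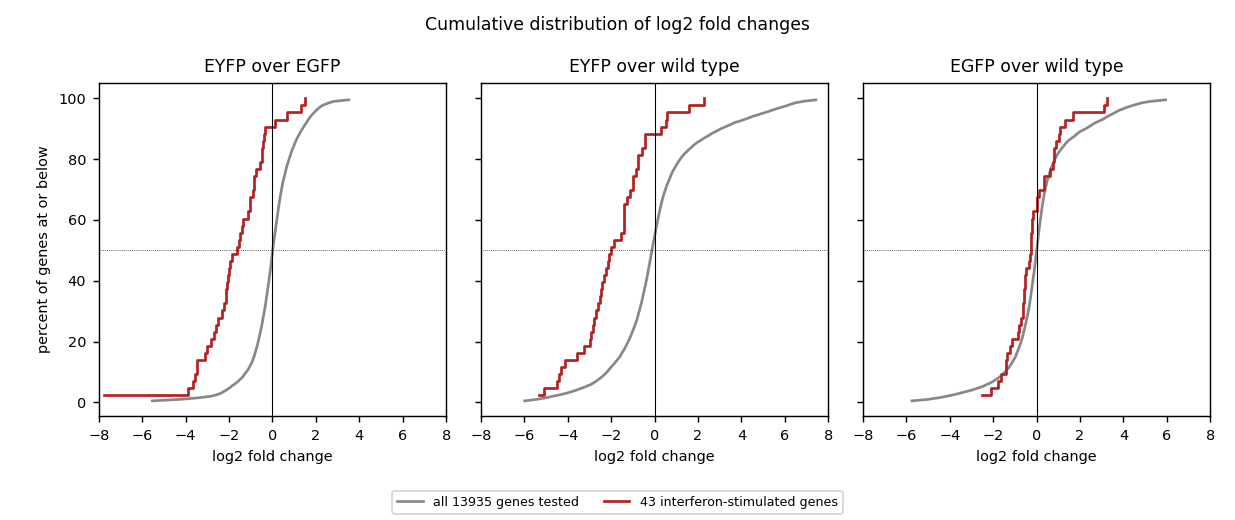
Cumulative distribution of log2 fold changes for the 43 members (red) and for all 13935 genes tested (grey), with the dotted line at the median. The red curve lies to the left of the grey one for EYFP over EGFP (medians -1.61 and 0.01) and EYFP over wild type (-2.03 and -0.12), and close to it for EGFP over wild type (-0.27 and 0.00).

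The nucleic acid sensors detect viral or misplaced nucleic acid. Of 5, 3 were lower in EYFP than in EGFP cells, against 19.4% of all genes. All 5 were lower in EYFP cells than in wild type, against 33.5% of all genes. Zbp1, a sensor of left-handed double-stranded nucleic acid that can trigger necroptosis, was at 34.98 and 36.4 CPM in EGFP cells, 1.97 and 4.12 CPM in EYFP cells, and 19.6 and 21.9 CPM in wild type. Its libraries did not overlap between groups and EGFP cells were highest, but EGFP cells against wild type did not pass (log2 0.78 ± 0.27, adjusted p = 0.053). It was 11.8-fold lower in EYFP than in EGFP cells (log2 -3.56 ± 0.32, SE, adjusted p = 0.00038), and -4.18 on the log2 scale without EYFP replicate 2. Ddx58, which encodes the RNA sensor RIG-I, was at 36.7 and 31.5 CPM in EGFP cells, 6.50 and 9.34 CPM in EYFP cells, and 56.5 and 91.8 CPM in wild type. Here wild type was highest, and each pair of groups was apart. The log2 fold changes were -2.11 ± 0.29 for EYFP against EGFP cells (adjusted p = 0.0019) and -1.13 ± 0.27 for EGFP cells against wild type (adjusted p = 0.013, lost without either EGFP library or without wild-type replicate 2, where it was -0.73). Ifih1, the long-RNA sensor MDA5, was at 49.3 and 61.6 CPM in EGFP cells, 27.1 and 34.1 CPM in EYFP cells, and 65.5 and 98.5 CPM in wild type. Its difference between the sorted cells was -0.86 ± 0.23 (adjusted p = 0.025) and did not pass without either EGFP library (-0.96 and -0.70) or without EYFP replicate 1 (-0.70). Dhx58, the related regulator LGP2, had an adjusted p of 0.052 between the sorted cells (log2 -1.40 ± 0.46). Against wild type it was at -1.38 ± 0.46 (adjusted p = 0.034). This did not pass in the fit to 4 libraries, with the replicate block, or without either EYFP library, EGFP replicate 1 or wild-type replicate 2. Its log2 fold change was -0.51 without wild-type replicate 2. Eif2ak2, the kinase PKR that stops translation, was lowest in both EYFP libraries, by small steps. It was at 50.7 and 46.7, 37.5 and 39.0, and 53.6 and 62.0 CPM in EGFP, EYFP and wild-type libraries. It was lower in EYFP cells than in wild type by -0.60 ± 0.14 on the log2 scale (adjusted p = 0.0077), a call lost without EYFP replicate 1 (-0.56).

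The transcription factors carry the signal to the promoters. In 4 of 5 the level was lower in EYFP than in EGFP cells, against 19.4% of all genes. Irf8, a factor of the myeloid and lymphoid lineages that interferon gamma induces, was at 101 and 81.0 CPM in EGFP cells, 27.2 and 32.2 CPM in EYFP cells, and 138 and 140 CPM in wild type. The 3 groups did not overlap. Its log2 fold change between the sorted cells was -1.61 ± 0.16 (adjusted p = 0.00056), and EGFP cells were below wild type by -0.61 ± 0.16 (adjusted p = 0.016, lost without EGFP replicate 2 or wild-type replicate 2, at -0.46 and -0.60). Stat2 was at 81.5 and 81.7 CPM in EGFP cells, 29.2 and 34.7 CPM in EYFP cells, and 45.1 and 83.6 CPM in wild type, where the libraries were far apart. EYFP cells were below EGFP cells (-1.35 ± 0.28, adjusted p = 0.011), and just missed the threshold without EGFP replicate 1 or EYFP replicate 1 (-1.30 and -1.23). Irf9, the DNA-binding part of the complex with STAT2, differed by -1.05 ± 0.20 (adjusted p = 0.0056), which was lost without EGFP replicate 1 (-0.81). Irf1, a factor induced by interferon gamma, had the highest level of the 5, at 225 and 235 CPM in EGFP cells, 156 and 174 CPM in EYFP cells, and 262 and 293 CPM in wild type. The groups did not overlap but the steps between them were small. Its difference between the sorted cells, -0.47 ± 0.14 (adjusted p = 0.036), was lost with DESeq2 size factors (-0.40) and without any 1 of the 4 libraries compared (-0.56 to -0.40). Irf7, which amplifies type I interferon production, was at 80.7 and 94.7, 40.9 and 61.6, and 67.5 and 136 CPM in the 3 groups and passed no test (adjusted p = 0.14 between the sorted cells).

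The IFIT proteins bind viral RNA, and their 3 genes lie next to each other on chromosome 19 (Ifit2 at chr19:34550550-34576534, Ifit3 at chr19:34583119-34588982 and Ifit1 at chr19:34640889-34650009). They did not move together between the sorted cells. Ifit1 was at 7.40 and 8.84 CPM in EGFP cells, 0.493 and 2.24 CPM in EYFP cells, and 20.4 and 36.0 CPM in wild type, in 3 separate levels. Between the sorted cells it was lower in EYFP by -2.60 ± 0.62 on the log2 scale (adjusted p = 0.020), a call lost without either EGFP library. Each EYFP library moved it, to -1.84 with replicate 1 left out and to -4.02 with replicate 2 left out. Ifit3 was at 1.95 and 2.28 CPM in EGFP cells, 1.91 and 1.22 CPM in EYFP cells, and 6.52 and 18.0 CPM in wild type. The sorted groups were thus close (-0.41 ± 0.57, adjusted p = 0.61), while both were below wild type, EGFP cells by -2.53 ± 0.53 (adjusted p = 0.0069, lost without EGFP replicate 1; -1.61 without wild-type replicate 2) and EYFP cells by -2.94 ± 0.54 (adjusted p = 0.0022; -2.03 without wild-type replicate 2). Ifit2 stayed between 1.45 and 2.29 CPM in all 6 libraries. Reads that match both Ifit3 and a close copy would be divided by the estimate, so its level is uncertain.

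The oligoadenylate synthetases make the messenger that activates RNase L on sensing double-stranded RNA, and the 2 OAS-like proteins are relatives of them. Between the sorted cells 3 of 5 were lower in EYFP cells, against 19.4% of all genes. All 5 had EYFP libraries below both EGFP libraries, against 36.9% of all genes. Oasl1, a repressor of Irf7 translation, was at 33.6 and 45.3 CPM in EGFP cells, 2.26 and 4.96 CPM in EYFP cells, and 61.8 and 78.9 CPM in wild type. It was 11.1-fold lower in EYFP than in EGFP cells (log2 -3.47 ± 0.36, adjusted p = 0.0009; -4.13 without EYFP replicate 2) and -4.30 ± 0.37 against wild type (adjusted p = 8.4e-05). Oasl2 was at 64.8 and 58.9 CPM in EGFP cells, 12.6 and 15.7 CPM in EYFP cells, and 40.7 and 109.6 CPM in wild type. Oas1a was at 61.8 and 46.4, 12.8 and 14.3, and 18.1 and 52.6 CPM in the same order. In both, the sorted groups were apart and the wild-type libraries were far from each other. In Oasl2 they lay on either side of the EGFP libraries, and in Oas1a replicate 1 lay below both EGFP libraries and replicate 2 between them. Their log2 fold changes between the sorted cells, -2.13 ± 0.47 (adjusted p = 0.017) and -1.99 ± 0.49 (adjusted p = 0.025), each failed to pass with no filter on low counts and when any 1 of the 4 libraries was left out, with values from -2.30 to -1.97 and from -2.19 to -1.72. Against wild type, Oas1a had an adjusted p of 0.049 (-1.39 ± 0.49). That call was lost with DESeq2 size factors, no filter on low counts, the fit to 4 libraries or the replicate block. It was also lost when any 1 library other than wild-type replicate 1 was left out. The log2 fold change was -0.43 without wild-type replicate 2.

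Oas2 and Oas3 lie side by side on chromosome 5 (chr5:120730333-120749886 and chr5:120753098-120777684) and differed in their order. Oas2 was at 52.2 and 33.5 CPM in EGFP cells, 13.4 and 17.2 CPM in EYFP cells, and 1.58 and 8.20 CPM in wild type, so that both sorted groups lay above wild type. It was higher in EGFP cells than in wild type (3.08 ± 0.69 on the log2 scale, adjusted p = 0.017), a call lost with no filter on low counts, and at 2.38 and 4.75 without wild-type replicates 1 and 2. Oas3 was at 25.7 and 22.03 CPM in EGFP cells, 4.51 and 5.63 CPM in EYFP cells, and 12.9 and 58.3 CPM in wild type. It was lower in EYFP cells than in wild type (-2.82 ± 0.73, adjusted p = 0.020; lost with no filter or without either EYFP library, and -3.53 and -1.35 without wild-type replicates 1 and 2). Its difference between EGFP cells and wild type, -0.59 ± 0.66, turned to 0.88 without wild-type replicate 2.

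Isg15 and Usp18 work against each other: ISG15 is a ubiquitin-like protein attached to other proteins, and USP18 removes it and also blocks the type I interferon receptor. The pair went in opposite directions in EYFP cells. Isg15 was at 15.6 and 11.9 CPM in EGFP cells, 1.14 and 1.35 CPM in EYFP cells, and 16.1 and 26.6 CPM in wild type. EYFP cells were 11.04-fold lower than EGFP cells (log2 -3.46 ± 0.36, adjusted p = 0.0006) and -4.11 ± 0.36 against wild type (adjusted p = 4.9e-05). Usp18 was at 17.0 and 23.6 CPM in EGFP cells, 53.4 and 61.6 CPM in EYFP cells, and 4.83 and 18.8 CPM in wild type. Both EYFP libraries lay above the other 4. Against wild type the difference passed (2.26 ± 0.59, adjusted p = 0.020), except with no filter on low counts or without either EYFP library; it was 1.61 without wild-type replicate 1 and 3.57 without wild-type replicate 2. Against EGFP cells it did not pass (1.49 ± 0.58, adjusted p = 0.098), while it passed with the DESeq2 Wald test, with only the 4 libraries compared and without either wild-type library. Among the members it ranked 3 by level per length in EYFP cells, with 32.5 CPM per kilobase of transcript, against 11.5 in EGFP cells and 6.66 in wild type.

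The other antiviral effectors act on viral entry, replication or release. Of 9, 4 (Mx1, Mx2, Bst2 and Xaf1) were lower in EYFP than in EGFP cells, against 19.4% of all genes. Bst2, or tetherin, which holds budding virus at the cell surface, was at 29.7 and 17.9 CPM in EGFP cells, 3.45 and 2.02 CPM in EYFP cells, and 9.24 and 14.1 CPM in wild type. The 3 groups did not overlap and EGFP cells were highest. The log2 fold changes of EYFP cells were -3.10 ± 0.39 against EGFP cells (adjusted p = 0.0013) and -2.08 ± 0.39 against wild type (adjusted p = 0.0025). Mx1, a dynamin-like GTPase that blocks viral transcription, was at 7.43 and 15.0, 0.352 and 1.15, and 2.80 and 6.35 CPM in EGFP, EYFP and wild-type libraries. The difference between the sorted cells was -3.91 ± 0.69 (adjusted p = 0.0053), with -3.25 without EYFP replicate 1 and -4.97 without EYFP replicate 2. Mx2, its paralogue, was lower by -2.34 ± 0.47 (adjusted p = 0.0075; lost without EGFP replicate 1, at -2.14), and Xaf1, which antagonises an inhibitor of apoptosis, by -2.06 ± 0.51 (adjusted p = 0.018; lost without EGFP replicate 1 or EYFP replicate 1, and -2.83 without EYFP replicate 2). In EYFP cells Mx1 and Mx2 rest on 18.7 and 15.3 estimated counts over both libraries.

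Ifi35, which forms a complex with another interferon-induced protein, separated wild type from both sorted groups, at 39.1 and 40.3 CPM in EGFP cells, 29.7 and 27.0 CPM in EYFP cells, and 81.6 and 123 CPM in wild type. It was lower in EGFP cells than in wild type (-1.37 ± 0.20, adjusted p = 0.0013) and in EYFP cells (-1.86 ± 0.21, adjusted p = 0.00016), while the sorted groups did not differ past the test (-0.49 ± 0.21, adjusted p = 0.10). Rsad2, or viperin, an enzyme that makes a chain-terminating nucleotide, was at 6.75 and 4.48 CPM in EGFP cells, 6.77 and 20.7 CPM in EYFP cells, and 11.9 and 6.39 CPM in wild type. Its EYFP libraries were far apart, and its value of 1.29 ± 0.60 between the sorted cells (adjusted p = 0.14) went from 0.27 without EYFP replicate 2 to 1.89 without EYFP replicate 1, which passed. Samd9l and Rtp4 did not pass in any comparison, at -0.44 ± 0.25 and -0.84 ± 0.54 between the sorted cells. Ifi44 stayed between 1.499 and 4.11 CPM in all libraries.

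The interferon-inducible GTPases attack the vacuoles of intracellular bacteria and parasites and answer strongly to interferon gamma. Of 8, 6 were lower in EYFP than in EGFP cells, against 19.4% of all genes. In all 8 the EYFP libraries lay below both EGFP libraries, against 36.9% of all genes. Both counts include Iigp1, which passed the filter on low counts through the EGFP libraries alone. Irgm1, a regulator of the other GTPases and of autophagy, was at 89.8 and 63.8 CPM in EGFP cells, 19.0 and 20.603 CPM in EYFP cells, and 41.1 and 31.5 CPM in wild type. EGFP cells were highest and EYFP cells lowest, with no overlap. The log2 fold changes were -1.95 ± 0.22 for EYFP against EGFP cells (adjusted p = 0.00073), 1.08 ± 0.21 for EGFP cells against wild type (adjusted p = 0.0045), and -0.87 ± 0.21 for EYFP cells against wild type (adjusted p = 0.0083; lost without EYFP replicate 1, at -0.81). Irgm2, another regulator, was at 27.3 and 24.6 CPM in EGFP cells, 5.61 and 5.99 CPM in EYFP cells, and 23.9 and 23.5 CPM in wild type. EGFP cells and wild type were level (0.13 ± 0.17, adjusted p = 0.59), and EYFP cells were below EGFP cells by -2.16 ± 0.19 (adjusted p = 0.00034). Igtp, or IRGM3, was at 36.8 and 20.1, 4.03 and 4.68, and 59.1 and 44.0 CPM in EGFP, EYFP and wild-type libraries. It was lower in EYFP cells by -2.70 ± 0.33 against EGFP cells (adjusted p = 0.0013) and -3.56 ± 0.34 against wild type (adjusted p = 9.9e-05). Igtp and Irgm2 are the neighbours on chromosome 11 with the same motif layout. Against wild type, Igtp in EGFP cells was at -0.86 ± 0.29 (adjusted p = 0.051).

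Among the guanylate-binding proteins, Gbp6 was lower in EYFP than in EGFP cells by -2.52 ± 0.47 on the log2 scale (adjusted p = 0.0057; lost without EGFP replicate 1, and -3.39 without EYFP replicate 2). Gbp7 was lower by -1.55 ± 0.32 (adjusted p = 0.0089; lost without EGFP replicate 1 or EYFP replicate 2, at -1.28 and -1.39). Gbp2 was at 5.07 and 9.05 CPM in EGFP cells, 1.93 and 0 CPM in EYFP cells, and 1.99 and 2.35 CPM in wild type, with an adjusted p of 0.084 between the sorted cells. It passed with the DESeq2 Wald test and without EYFP replicate 1, where the remaining EYFP library holds no count and the floor of 3 counts makes EYFP cells at least 29.4-fold lower. Gbp3 was at 4.51 and 2.98, 1.61 and 0.352, and 1.94 and 3.91 CPM, and missed the threshold as well (adjusted p = 0.073; passed with no filter or without EYFP replicate 1, at -3.41). Gbp2, Gbp3 and Gbp7 are neighbours on chromosome 3 with similar sequence, so reads may be divided among them by the estimate. Iigp1, the effector GTPase of the family, was at 3.62 and 0.846 CPM in EGFP cells and 0.381 and 0.0603 CPM in wild type, and no read was assigned to it in either EYFP library. It passed the filter on low counts through the EGFP libraries alone, so a lower level in EYFP cells was favoured in advance. With the floor of 3 counts over the group, it was at least 17.3-fold lower in EYFP than in EGFP cells (adjusted p = 0.018), from 7.35-fold without EGFP replicate 1 to 31.4-fold without EGFP replicate 2. The call was lost without EGFP replicate 1 or either EYFP library.

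The last group holds enzymes of ADP-ribosylation and ubiquitin transfer, nuclear-body proteins and a secreted glycoprotein. Of 6, 5 were lower in EYFP than in EGFP cells, against 19.4% of all genes. The same 5 were lower in EGFP cells than in wild type, against 21.9% of all genes. Sp100, a component of the nuclear bodies that silence viral DNA, was at 12.997 and 14.7 CPM in EGFP cells, 0.775 and 1.43 CPM in EYFP cells, and 39.1 and 48.3 CPM in wild type. The steps between its 3 levels were each larger than the spread within a group. Its log2 fold changes were -3.67 ± 0.30 for EYFP against EGFP cells (adjusted p = 0.00029), -1.65 ± 0.24 for EGFP cells against wild type (adjusted p = 0.0012) and -5.32 ± 0.31 for EYFP cells against wild type (adjusted p = 9.2e-06). Trim30a, a ubiquitin ligase that restrains innate signalling, was at 3.81 and 2.59, 0.312 and 0.482, and 7.12 and 19.9 CPM in EGFP, EYFP and wild-type libraries. Its EYFP level rests on 10.2 estimated counts over both libraries. It was lower in EYFP than in EGFP cells by -3.02 ± 0.70 (adjusted p = 0.014; lost without EGFP replicate 1 or either EYFP library) and in EGFP cells than in wild type by -2.08 ± 0.53 (adjusted p = 0.016; lost without either EGFP library or wild-type replicate 2, where it was -1.15).

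Parp9 and Dtx3l, whose proteins form 1 complex, and their neighbour Parp14 lie within chr16:35831892-35972621. Parp14, was at 59.3 and 54.9 CPM in EGFP cells, 22.2 and 30.8 CPM in EYFP cells, and 112 and 195 CPM in wild type. The 3 genes changed by like amounts: between the sorted cells by -1.05 ± 0.21, -0.91 ± 0.22 and -1.11 ± 0.29 for Parp9, Dtx3l and Parp14, and in EGFP cells against wild type by -1.40 ± 0.21, -1.23 ± 0.22 and -1.42 ± 0.28. Between the sorted cells each of these calls was lost without EGFP replicate 1 and without EYFP replicate 1, with values between -1.20 and -0.78 over all libraries left out for Parp9 and Dtx3l and from -1.37 to -0.89 for Parp14. That of Dtx3l was also lost without EYFP replicate 2, and that of Parp14 without EGFP replicate 2. Against wild type, the call of Parp14 in EGFP cells was lost without EGFP replicate 2. Lgals3bp, a secreted glycoprotein that binds galectins, was the member with the highest level per length in each group, at 165, 264 and 182 CPM per kilobase in EGFP cells, EYFP cells and wild type. It was at 369 and 399 CPM in EGFP cells, 626 and 603 CPM in EYFP cells, and 387 and 463 CPM in wild type, with EYFP libraries above all others. It was the member that passed as higher between the sorted cells (0.68 ± 0.17, adjusted p = 0.018), and it was higher than wild type by 0.53 ± 0.17 (adjusted p = 0.027). The first call was lost without any 1 of the 4 libraries compared (0.65 to 0.73), and the latter without EGFP replicate 2, either EYFP library or wild-type replicate 1 (0.53, 0.51, 0.56 and 0.40).

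Per kilobase of transcript, the members ranged widely. Lgals3bp and Irf1 had the highest levels in all 3 groups, with Irf1 at 109, 78.8 and 132 CPM per kilobase in EGFP cells, EYFP cells and wild type. The lowest were Ifit2 in EGFP cells (0.389) and Iigp1 in EYFP cells and wild type (0 and 0.0729). Set beside the motifs, 12 of the 18 members with an ISRE core in the window were lower and none was higher in EYFP against EGFP cells, with a median log2 fold change of -2.05. Of the 14 with a window and no ISRE core, 8 were lower and 1 was higher, with a median of -0.84. Of the 11 with no window in the table, 7 were lower (median -1.49). Over all genes, 19.4% were lower and 16.8% higher in EYFP against EGFP cells. Between EGFP cells and wild type the medians were -0.41, -0.28 and 0.02 in the same order. Between EYFP cells and wild type they were -1.79, -1.55 and -2.53. There the members with and without an ISRE core were closer, and those with no window were lowest. A link between the motif and the size of a change was not tested.

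The 2 libraries of a group were not alike in these genes, and the wild-type pair had the largest median ratio. In wild type 36 of the 43 members were higher in replicate 2 than in replicate 1, against 57.7% of all genes, with a median log2 ratio of 0.59 (0.07 over all genes). Ratios were taken of CPM + 0.5. On that scale 11 members, or 25.6%, were more than 2-fold higher in replicate 2, against 2.84% of all genes. Of these, 4 were OAS family genes, with Oas2 5.18-fold and Oas3 4.50-fold higher in CPM, and Usp18 was 3.88-fold higher. Of the 8 GTPases, 3 were higher in replicate 2, none of them by 2-fold on the scale of CPM + 0.5 (Gbp3 was 2.01-fold higher in plain CPM), with a median log2 ratio of -0.20. In EYFP cells 34 members (79.1%) were higher in replicate 2, against 46.5% of all genes (medians 0.24 and -0.02). In EGFP cells 16 members (37.2%) were, against 49.8% of all genes, with a median of -0.22 over the members. The wild-type libraries also differed in Xist (1.15 and 726 CPM) and in the ribosomal RNA gene Rn45s (21993 and 5159 CPM). Summed markers differed for tuft cells (20.0 and 83.2 CPM), enterocytes (22534 and 36335 CPM) and stroma with endothelium (1.67 and 27.6 CPM). Lymphocyte and myeloid sums were alike (639 and 690, and 36.6 and 36.5 CPM). The part of these in the difference was not tested.

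**Figure D5:**
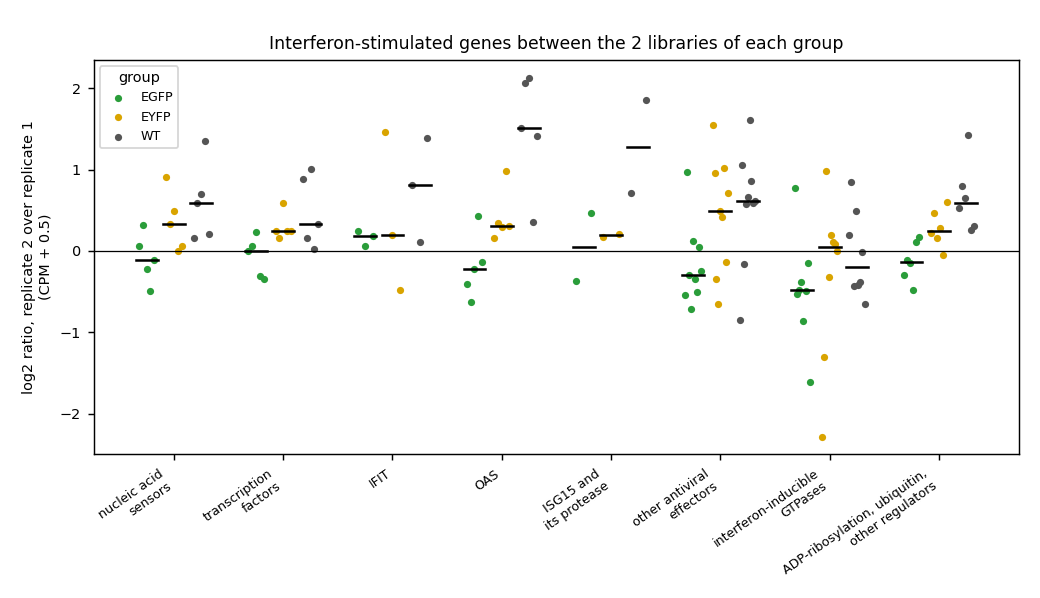
Log2 ratio of replicate 2 over replicate 1, of CPM + 0.5, for each member within each group, by role, with a line at the median of each role. In wild type (grey) the OAS role has a median of 1.51 and the GTPases one of -0.20.

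The rest of the interferon pathway was read from a list of 49 ligands, receptors, kinases, adaptors and inhibitors, of which 38 could be tested. Type I and type III interferon genes were at or near 0 in every library. Ifng was at 0 and 0.0846 CPM in EGFP cells and 0 in either EYFP library, whereas wild type had 1.499 and 0.543 CPM. Of the 38, 10 (26.3%) were lower and 3 (7.89%) higher in EYFP than in EGFP cells, against 19.4% and 16.8% of all genes, with a median log2 fold change of -0.26. Among those lower, Uba7, the enzyme that activates ISG15, differed by -2.04 ± 0.27, Nlrc5, a regulator of MHC class I genes, by -3.00 ± 0.49 (-2.20 without EGFP replicate 1), and Tlr3, a sensor of double-stranded RNA, by -1.21 ± 0.17. Ikbke (-1.38), Herc6 (-1.52) and the receptor chain Ifngr1 (-1.06) were lower as well. The 3 higher were the receptor chain Ifnar2 (0.80 ± 0.24), Jak1 (0.67 ± 0.15) and Traf3 (0.62 ± 0.14). These counts were unsteady, since 8 of the 38 were called when EGFP replicate 1 was left out, 6 when EGFP replicate 2 was, and 5 when EYFP replicate 1 was.

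All 6 receptor chains listed were lower in EGFP cells than in wild type past the test, and 1 (Ifngr1) was lower in EYFP than in EGFP cells. The call of Ifngr2 held in every alternative fit run, and those of the other 5 did not. Ifnar1 (adjusted p = 0.042) lost it with DESeq2 size factors, by the DESeq2 Wald test, in the fit to 4 libraries and without any library other than wild-type replicate 1. Ifnar2 and Il10rb lost it without either EGFP library or without wild-type replicate 2, and Ifngr1 in the fit to 4 libraries and without EGFP replicate 1 or wild-type replicate 1. Ifnar1, Ifnar2, Il10rb and Ifngr1 also differed by less than 2-fold. The interferon gamma receptor chain Ifngr2 was at 43.1 and 63.0 CPM in EGFP cells, 32.005 and 40.7 CPM in EYFP cells, and 180 and 246 CPM in wild type, so EGFP cells were below wild type by -2.001 ± 0.25 (adjusted p = 0.00066). The type III receptor chain Ifnlr1 was at 7.96 and 16.1, 4.72 and 6.90, and 32.3 and 38.5 CPM, a difference of -1.54 ± 0.34 for EGFP cells against wild type (adjusted p = 0.0096), lost without EGFP replicate 1 or wild-type replicate 2, and -2.15 without EGFP replicate 2. In all, 13 of the 38 (34.2%, against 21.9% of all genes) were lower and 1, Tmem173 (1.20 ± 0.38), was higher in EGFP cells than in wild type, a call that did not hold without EGFP replicate 1 or without either wild-type library. In EYFP cells 22 (57.9%, against 33.5%) were lower and 4 higher than in wild type. Without EGFP replicate 1, the EGFP count was 9 rather than 14. Of the receptor chains, Ifngr1, Ifngr2, Ifnlr1 and Il10rb were also lower in EYFP cells than in wild type past the test. Ifnar1 (-0.23 ± 0.17, adjusted p = 0.28) and Ifnar2 (-0.11 ± 0.24, adjusted p = 0.71) were not. Lymphocyte and enterocyte markers separate both kinds of sorted cells from wild type, and their part in the receptor differences was not tested.

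The authors' deposited table gives its own comparison of the same groups. At an adjusted p under 0.05, the authors' deposited table has 31 members lower and 2 higher in EYFP cells than in EGFP cells, and 28 calls were shared in direction with those above. The 5 called in the authors' deposited table alone were Dhx58, Irf7, Oas2, Oas3 and Usp18. For EGFP cells against wild type the authors' deposited table called 12 lower and 6 higher, of which 12 were shared. The 6 called there alone were Zbp1, Oasl1, Bst2, Gbp2, Igtp and Iigp1. For EYFP cells against wild type it called 29 lower and 3 higher, of which 31 were shared. The share of all genes called there is not given here, so these numbers compare calls and do not set the members apart from other genes.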

How the data were processed

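RNA was measured in 6 libraries, grouped by the genotype in the labels. Per the labels' protocols, RNeasy Micro RNA and TruSeq libraries were used, read as 50 bases from 1 end on a HiSeq2000. The submitters' processing notes name the mm10 build, RSEM 1.3.1, Bowtie2, FastQC 0.11.8 and DESeq2 1.26.0, without their roles or a strand setting. The authors deposited estimated counts per gene, which divide reads between similar genes; they were rounded to whole numbers here. The authors' deposited table of comparisons, with a linear fold and an adjusted p-value per comparison and a signal per library, was used for its calls alone.

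Genes with low counts were removed with filterByExpr, which keeps genes above a minimum in at least 2 libraries. A member low in 1 group could thus pass through the others, and Iigp1 passed through the EGFP libraries alone. Of 23845 genes, 13935 (58.4%) were tested with edgeR 4.0.16 (R 4.3.3; TMM factors, robust quasi-likelihood F test, 1 model of 3 group means, 3 residual degrees of freedom, Benjamini-Hochberg over all genes). The SE comes from the F value, and the biological coefficient of variation was 19.8%. Where a whole group was at 0, folds were set against 3 counts over that group, for counting error only. Levels per length divide CPM by the mean length of the gene's annotated transcripts. Total counts ranged from 7938358 to 20589683. The fit was tested on simulated data.

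The members and lists were chosen with earlier results of these data known. Within each role, values per library were planned for up to 2 members with the largest called change and the one with the highest level; others, such as Rsad2, Oas3 and Usp18, were added after their values were seen. Alternatives were DESeq2 1.42.0 size factors and Wald test, scaling without the 50 most abundant genes, 2 other filters, a fit to 4 libraries, a minimum fold of 2, a replicate block, and fits without each library in turn. One gene of the pathway list is counted but not reported here by name.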

Additional observations from a re-analysis of the deposited data

How the results depend on the processing

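The number of members called between EYFP and EGFP cells stayed within 1.5 times of the 28 under the alternatives run, other than without EGFP replicate 1 (11); leaving out each library in turn gave 11 to 35. For EYFP cells against wild type the count went from 25 to 35 around 32, and for EGFP cells against wild type from 9 to 17 around 12, with 1 library left out. Pathway genes called between EYFP and EGFP cells (13) went to 8 at a fold of at least 2, and to between 5 and 15 with 1 library left out; for EGFP cells against wild type (14) the count went to 6 at a fold of at least 2, and to between 9 and 14. Oas3 reversed between EGFP cells and wild type, from -0.59 to 0.88 without wild-type replicate 2 (adjusted p = 0.044), with a range from -1.29 to 0.88 over the libraries left out; wild-type libraries differ 4.50-fold in this gene. With the replicate block, 30, 32 and 18 members and 19, 26 and 16 pathway genes were called (EYFP against EGFP, EYFP against wild type, EGFP against wild type). Deviations of same-numbered libraries correlated at 0.06, 0.02 and 0.13 in the same order. Each value rests on 1 pair of libraries per group, so it cannot decide whether equal numbers mark a shared day or sort. In EYFP cells Mx1, Mx2, Trim30a, Sp100, Gbp2 and Gbp3 rest on 10.2 to 28 counts over both libraries, which limits their precision.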
